A study of Mus musculus with 6 samples.

Results

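Tanycytes are elongated glial cells that line the walls and floor of the third ventricle in the hypothalamus. Here they are the cells that carry the deposited label for tanycytes in mice 3, 4, 30 and 34. There were 4490 of them among 20151 cells, or 22.3%. The cells came from dissociated hypothalamus and were sequenced one by one with the 10x Chromium 3' method.

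The mice were male ob/ob animals, which lack leptin and become obese and diabetic. They were 11 weeks old, housed singly, fed chow freely, and given 3 µg of the FGF1 mutant R50E (FGF1 is a fibroblast growth factor) into a cerebral ventricle. They were killed on day 5, and each sample is 1 mouse. Mice 12 and 37 of the same group had no cells in the table and were not analysed here. As there is 1 treatment group, no effect of R50E or of leptin deficiency was measured, and anything that all 4 mice share cannot be told apart from either.

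Tanycytes face the cerebrospinal fluid with their cell bodies and send a long process into the tissue or, in the floor, to the vessels of the median eminence. They are known for passing hormones and nutrients between blood, cerebrospinal fluid and neurons, for controlling local thyroid hormone, and for keeping features of radial glia in the adult.

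Mice 3, 4, 30 and 34 gave 1604, 693, 851 and 1342 tanycytes, which were 21.7%, 21.8%, 28.3% and 20.4% of their cells (mean 23.1% ± 3.57, SD, n = 4). A tanycyte held a median of 1205, 958, 932 and 1208 UMIs (unique molecular identifiers, or counted molecules), and all tanycytes of a mouse together held 881597 to 2034432. Of 19954 distinct cell barcodes, 194 were found in more than 1 mouse, 9 of them in tanycytes. Levels below are CPM, the UMIs of a gene per 1000000 UMIs of all tanycytes (or all cells of another type or set) of a mouse, with the SD over 4 mice unless an SE is named.

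The label was first checked against its markers. Rax, the homeobox factor that specifies tanycytes, stood at 56.0, 79.4, 52.7 and 57.7 CPM in mice 3, 4, 30 and 34, and its next highest mean was 11.2 ± 3.09 CPM, in astrocytes. Crym, which binds thyroid hormone in the cytosol, was at 688, 593, 881 and 495 CPM, and the next ranked type, oligodendrocyte precursor cells, had 26.3 ± 26.4 CPM. Col23a1, a membrane collagen, was at 668, 794, 626 and 680.2 CPM, against 55.9 ± 38.3 CPM in astrocytes, the next ranked type. In every mouse, these genes were higher in tanycytes than in any other ranked type. Vim, the filament vimentin, did not separate tanycytes: it was at 507 ± 41.9 CPM in them, 787 ± 212 CPM in ependymal cells and 436 ± 76.5 CPM in endothelial cells. Vascular leptomeningeal cells, with as few as 6 cells in a mouse, were left out of this ranking.

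**Figure D1:**
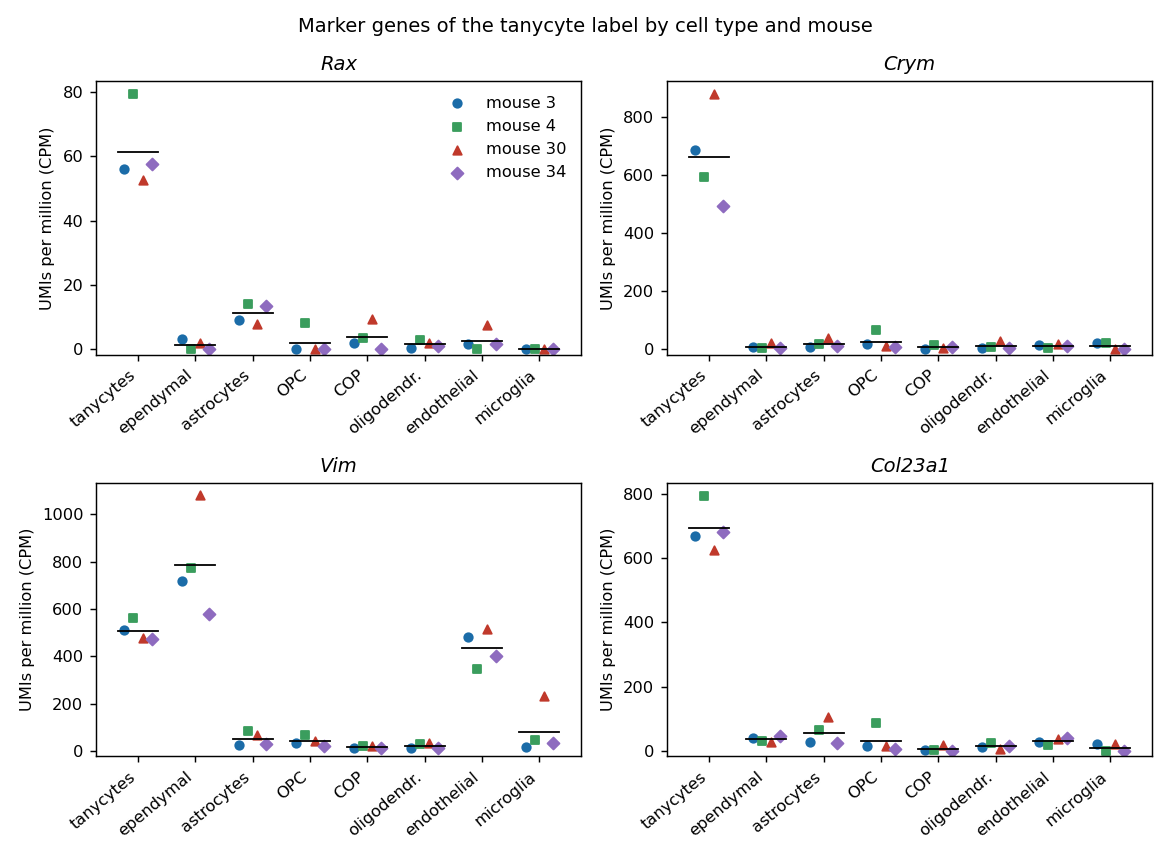
Level of the 4 marker genes of the label (CPM, vertical axes) in each ranked cell type; symbols are mice and horizontal lines are means over 4 mice, OPC are oligodendrocyte precursor cells and COP committed oligodendrocyte precursors. Rax, Crym and Col23a1 are highest in tanycytes in every mouse, while Vim has a higher mean in ependymal cells (787 CPM) than in tanycytes (507 CPM).

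Markers of other cells were also found in tanycytes. The 5 ependymal markers summed to 638, 500.2, 479 and 611 CPM in mice 3, 4, 30 and 34, and all 5 were lower than in ependymal cells. The 5 astrocyte markers summed to 251 to 325 CPM, the 5 oligodendrocyte markers to 561 to 826 CPM and the 5 microglia markers to 40.3 to 74.9 CPM, and none of the markers in these 4 lists was at 0. The part of RNA from other cells in the levels below was not tested.

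Genes that set tanycytes apart were those above each other ranked type in all 4 mice, with a mean log2 ratio of at least 1 to the highest of them (5 CPM added). Of 6276 genes with at least 20 CPM, 49 met this, or 0.781%. The labels rest on the same cells, so this is a description without a test.

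Among the receptors, Gpr50, an orphan receptor related to those for melatonin, stood at 598, 698, 600.4 and 563 CPM in the 4 mice. The next type, ependymal cells, had a mean of 41.7 CPM. Fzd5, a Wnt receptor, stood at 142 ± 16.6 CPM, and no other ranked type had a mean above 9.88 CPM. Tshr, the thyrotropin receptor, was at 55.8 ± 4.23 CPM.

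Secreted and surface signals were another group. Fgf10, a ligand of FGF receptors, was at 67.3, 56.7, 50.6 and 48.2 CPM, against 3.24 CPM in ependymal cells. Frzb, a secreted Wnt antagonist, was at 267, 268, 243 and 138 CPM, so mouse 34 was the lowest. Slit2, a secreted guidance cue, was at 610.2 ± 59.9 CPM and Efna5, a membrane-bound ephrin, at 120.3 ± 6.26 CPM. Col25a1, a membrane collagen, was less even, at 53.1, 94.1, 101 and 57.7 CPM, with mice 4 and 30 above mice 3 and 34. Rspo3, which amplifies Wnt signals, was at 38.1 ± 2.56 CPM and Apoa1, an apolipoprotein of high-density lipoprotein, at 62.1 ± 12.4 CPM.

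Transcription factors of the developing forebrain were also among the 49. Lhx2 was at 139, 226, 165 and 174 CPM, and the highest mean of another type was 17.6 CPM. Six3 stood at 157 ± 28.0 CPM and Nkx2-4 at 55.7 ± 22.6 CPM, the latter against 26.3 CPM in ependymal cells. Thrsp, a nuclear protein that responds to thyroid hormone and is tied to lipid synthesis, was at 664 ± 65.4 CPM. The remaining genes of large ratio were 6330403K07Rik, at 10105 ± 851 CPM, and Kctd14, at 224 ± 16.3 CPM.

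**Figure D2:**
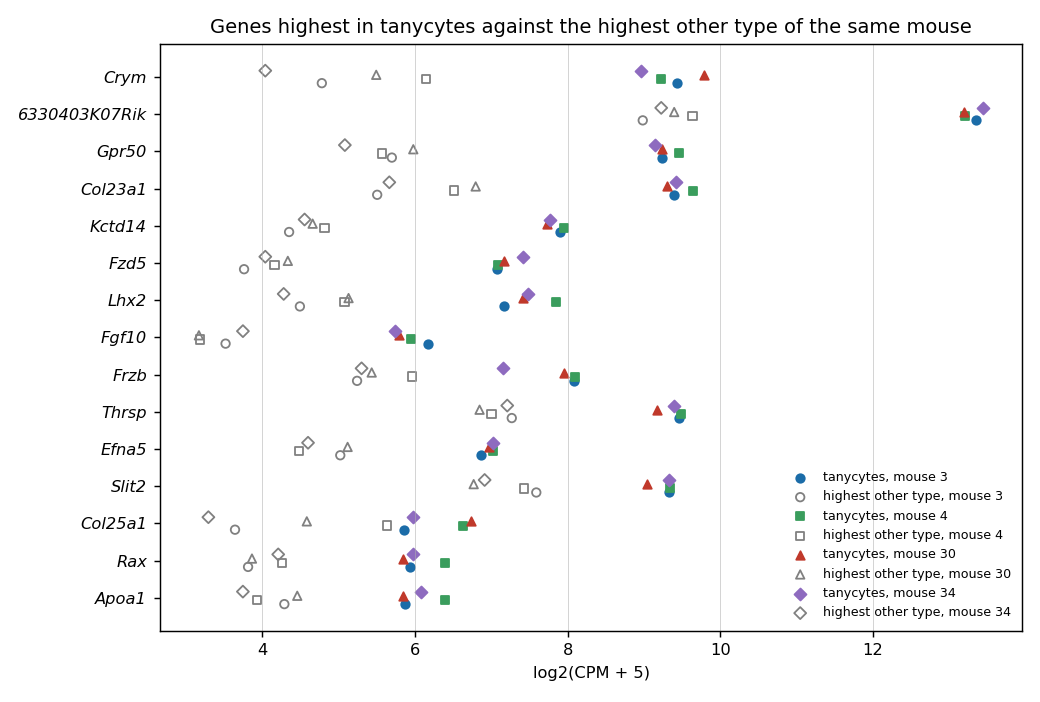
Level on a log2(CPM + 5) scale of the 15 genes with the largest ratio to the next type among genes at 50 CPM or more; filled symbols are tanycytes and open symbols the highest other ranked type of the same mouse. Filled symbols lie to the right of the open ones in each mouse and gene, with the largest mean log2 ratio for Crym (4.24).

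Ependymal cells, the ciliated neighbours in the ventricle wall, and astrocytes served as references for lists of genes. A gene counted as higher or lower when it was so in all 4 mice with a mean log2 ratio of at least 1 in size. Of 7472 genes, 4.62% were higher in tanycytes than in ependymal cells and 14.1% lower. Of 7145 genes, 8.61% were higher than in astrocytes and 10.1% lower. Of 138 list genes with a level in both comparisons, 24 were higher than in both types, against 2.12% of all 6564 genes. The lists hold genes already known from tanycytes. A count below that lies near the share of all genes higher or lower describes no trait of its list.

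Of 5 thyroid hormone genes with a level, 4 were higher than in ependymal cells and none lower, and of 7, 3 were higher than in astrocytes and 1 lower. Dio2, the deiodinase that makes active thyroid hormone, stood at 17.2, 21.6, 37.9 and 30.8 CPM in mice 3, 4, 30 and 34, with 2.52 ± 3.13 CPM in ependymal cells and 12.8 ± 2.68 CPM in astrocytes. Slco1c1, another transporter of thyroid hormone, went the other way, at 7.41 ± 3.03 CPM against 51.8 ± 7.52 CPM in astrocytes.

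Of 13 identity transcription factors, 5 were higher than in ependymal cells (Rax, Lhx2, Six3, Tbx3 and Nr2e1) and 2 were lower (Otx2 and Hopx). Of 12, 5 were higher than in astrocytes and 1, Pax6, was lower. Tbx3, a T-box repressor, was at 38.9 ± 10.5 CPM, with 1.13 ± 1.31 CPM in ependymal cells and 2.97 ± 1.49 CPM in astrocytes. Sox2, a factor of neural progenitors and glia, was at 263 ± 58.0 CPM and counted in neither direction.

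Of 11 radial glia and cytoskeletal genes, 4 were higher and 2 lower than in ependymal cells, while 4 were higher and 4 lower than in astrocytes. The glutamate transporter genes lay between the reference types. Slc1a3 was at 1183 ± 219 CPM, with 413 ± 64.2 CPM in ependymal cells and 3203 ± 225 CPM in astrocytes, and Slc1a2 at 1525 ± 88.3, 714 ± 67.7 and 4074 ± 349 CPM in the same order. Nes, the progenitor filament nestin, was at 60.0 ± 6.02 CPM, with 56.6 ± 1.17 and 9.23 ± 5.73 CPM.

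Of 17 genes of secreted factors and matrix, 7 were higher and 3 lower than in ependymal cells, and of 15, 6 were higher and 4 lower than in astrocytes. Ptn, the growth factor pleiotrophin, was at 3146, 2243, 2542 and 2439 CPM, with 219 ± 72.1 CPM in ependymal cells and 1140.4 ± 212 CPM in astrocytes. Vcan, the proteoglycan versican, was at 119 ± 18.3, 9.58 ± 3.59 and 8.65 ± 3.02 CPM. Sparcl1, a secreted matrix protein, was lower than in both, at 783 ± 71.6, 1713 ± 256 and 4859.9 ± 266 CPM.

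Of 8 genes of glucose, lactate and ATP handling, the lactate dehydrogenase genes Ldha and Ldhb were higher than in ependymal cells, and the glucose transporter gene Slc2a1 was lower, at 55.7 ± 4.11 CPM against 262 ± 64.4 CPM. Against astrocytes, 1 of 9 was higher (Ldha) and 4 were lower (Slc2a1, Pfkfb3 and the connexin genes Gja1 and Gjb6). Of 6 junction genes, 2 were higher and 1 lower than in ependymal cells, and 2 were higher and 2 lower than in astrocytes. Cdh2, the gene of N-cadherin, was higher than in both types, at 395 ± 27.8 CPM. Ocln, the gene of occludin, lay between them, at 36.5 ± 6.57 CPM against 128 ± 23.3 CPM in ependymal cells and 3.05 ± 0.926 CPM in astrocytes.

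Of 8 genes of retinoid handling, none was higher than in ependymal cells (4.62% of all genes) and 2 were lower (14.1%). Among these 2 was Rarres2, the gene of chemerin, at 323 ± 98.8 CPM against 1602 ± 259 CPM. Of 7, Rara and Ttr were higher and Aldh1a1 and Dhrs3 lower than in astrocytes. Ttr, which carries retinol and thyroid hormone and is also a choroid plexus marker, was at 281, 4.54, 37.9 and 15.7 CPM in mice 3, 4, 30 and 34, so its level rested mainly on mouse 3. Of 16 FGF and ERK genes, Fgf10 and Itgav were higher and none lower than in ependymal cells. Against astrocytes, 2 of 17 were higher (Fgf10 and Phlda1) and 4 lower (Fgf1, Fgfr3, Spry2 and Etv5). Of 6 progenitor and cell cycle genes, Notch2 and Hes1 were higher and Hey1 lower than in ependymal cells. Against astrocytes, 2 of 10 were higher (Hes1 and Ccnd2) and 5 lower (Notch3, Jag1, Hes5, Hey1 and Heyl), with a median log2 ratio of -0.81. The Notch target Hes1 was at 476, 1665, 803 and 1322 CPM, with mouse 3 lowest and mouse 4 highest. Mki67, a gene of dividing cells, was at 0, 2.27, 0 and 0 CPM. Of 11 hormone receptor and lipid genes, none was higher than in ependymal cells (4.62% of all genes). Of these 11, 2 were lower, Irs1 and Cd36 (14.1% of all genes). Of 10, Socs3 was higher and Cpt1a and Scd1 lower than in astrocytes.

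Tanycytes are known to differ from the wall of the ventricle (alpha tanycytes) to its floor (beta tanycytes). No position was measured here. Instead, 5 genes known from such regions served as anchors: Col25a1, Scn7a and Fgf10 for the floor, and Cd59a and Slc17a8 for the wall. Floor-anchor cells had a UMI of a floor anchor and none of a wall anchor, and wall-anchor cells the reverse. Mice 3, 4, 30 and 34 had 183, 94, 110 and 134 floor-anchor cells and 77, 38, 20 and 37 wall-anchor cells. No anchor was seen in 3778 tanycytes, or 84.1%.

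Anchors of opposite sets were found together in 19 tanycytes, where 45.4 were expected from cell depth and anchor frequency, a ratio of 0.418. The ratio was 0.374, 0.397, 0.843 and 0.239 in the 4 mice, below 1 in each and closest to it in mouse 30. Within sets, Col25a1 and Scn7a met in 41 cells against 15.4 expected, and Cd59a and Slc17a8 in 13 against 3.34. Fgf10 met Col25a1 in 24 cells against 29.8 expected, Scn7a in 7 against 9.92, Cd59a in 12 against 14.5 and Slc17a8 in 4 against 5.47, so it paired with neither set more often than depth gives. Without Fgf10 as an anchor, 266 of the 521 floor-anchor cells were left, so the names floor-anchor and wall-anchor stand for the rule and for no position. Cells are not replicates, and these counts carry no test.

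The sets were compared within mice with the edgeR quasi-likelihood test on summed counts, without the anchor genes. Of 2516 genes, 74 passed an adjusted p of 0.05 (2.94%), 37 higher in floor-anchor cells (1.47%) and 37 higher in wall-anchor cells (1.47%). Of these, 33 and 30 had the same direction in 4 of 4 mice. The count was 45 without mouse 4, 46 without mouse 34, 33 without Col25a1 as an anchor and 150 without Fgf10. Of the 74 calls, 73 were tested without Fgf10, and 68 of these were called again and none reversed. With mouse as a block in the fit, these p-values measure how far the within-mouse difference between sets varied over these mice. That spread was partly shared across genes.

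In floor-anchor cells, an imprinted locus held genes with large differences. Meg3, an imprinted long noncoding RNA, was at 1964, 2621, 2845 and 2079 CPM in floor-anchor cells of mice 3, 4, 30 and 34 and at 232, 479, 521 and 486 CPM in wall-anchor cells. The sets did not overlap, and tanycytes without an anchor had a mean of 979.8 CPM. The log2 difference was 2.57 ± 0.14 (SE; edgeR adjusted p = 9.66e-20). Meg3 was on the list of neuron markers; the other 4 of that list summed to 148 ± 21.8 CPM in floor-anchor and 174 ± 75.8 CPM in wall-anchor cells.

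Dlk1, a Notch-like membrane protein from the same locus, had 103 UMIs in floor-anchor and 3 in wall-anchor cells. The ratio per UMI was 10.9, with an exact 95% interval of 3.62 to 53.6 that covers counting error only. Its level in floor-anchor cells was 91.2, 201, 288 and 28.6 CPM, with mice 4 and 30 high and mouse 34 low (edgeR adjusted p = 0.000251). The call was lost without Col25a1 as an anchor (edgeR adjusted p = 0.552).

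Fzd5 and Frzb, a Wnt receptor and a Wnt antagonist, were also higher in floor-anchor cells. Fzd5 was at 235, 208, 201 and 238 CPM in floor-anchor and 80.7, 51.3, 0 and 81.1 CPM in wall-anchor cells, without overlap (log2 difference 1.83 ± 0.33, SE; edgeR adjusted p = 0.000203). Frzb was at 623, 389, 322 and 281 CPM against 182, 34.2, 240.4 and 97.3 CPM, so the sets were closest in mouse 30 (log2 difference 1.79 ± 0.27, SE; edgeR adjusted p = 1.23e-05). Tcf7l2, a transcription factor of the same pathway, had a log2 difference of 1.08 ± 0.30 (SE), a call that was lost without mouse 4, 30 or 34 (edgeR adjusted p = 0.142, 0.0529 and 0.427). No list of Wnt genes was counted.

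Further genes with other roles were higher in floor-anchor cells. Grik3, a kainate receptor subunit, was at 129 ± 45.6 CPM against 17.9 ± 24.2 CPM. Deptor, an inhibitor of mTOR, was at 196 ± 88.9 CPM against 52.7 ± 12.9 CPM, and Antxr1, a surface receptor that binds collagen, at 212 ± 51.8 against 79.3 ± 6.26 CPM. P3h2, a collagen prolyl hydroxylase, Cox6b2, a subunit of cytochrome c oxidase, and Lmo3, a LIM-only regulator, had log2 differences of 1.96, 1.63 and 2.03. Grik3, Lmo3, P3h2 and Cox6b2 had only 5, 5, 6 and 9 UMIs in all wall-anchor cells.

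Of 12 interferon response genes tested, 1 was called higher in floor-anchor cells and none in wall-anchor cells (1.47% of all tested genes in each direction). The 1 called was Ifit3. Its log2 difference was 1.46, which was not called without mouse 30 or mouse 34 (edgeR adjusted p = 0.351 and 0.147). A pair of related genes outside that list, Ifi27l2a and Ifi27, was also called higher in floor-anchor cells. Ifi27l2a had 94 UMIs in floor-anchor and 2 in wall-anchor cells, a ratio of 14.9 with an exact interval of 4.01 to 125 for counting error only. Between mice the log2 ratio (5 CPM added) ranged from 0.80 in mouse 4 to 5.58 in mouse 30. Mice 30 and 34 had no UMI of Ifi27l2a in wall-anchor cells, so their ratios are set by the added 5 CPM. Ifi27 had a log2 difference of 1.15 ± 0.23 (SE; edgeR adjusted p = 0.000766).

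Nr2f1 and Nr2f2, related nuclear receptors, were called higher in wall-anchor cells. No list of nuclear receptors was counted. Nr2f1, the factor COUP-TFI, was at 131, 154, 120.2 and 81.1 CPM in wall-anchor and 19.0, 13.4, 26.8 and 14.3 CPM in floor-anchor cells, without overlap (log2 difference -2.65 ± 0.55, SE; edgeR adjusted p = 0.00175). Nr2f2, its close relative, was at 111, 103, 40.1 and 146 CPM against 30.4, 13.4, 33.5 and 33.4 CPM, nearly level in mouse 30. The call of Nr2f1 was lost without Cd59a as an anchor (edgeR adjusted p = 0.163). The call of Nr2f2 was lost without mouse 3, 4 or 34 (edgeR adjusted p = 0.166, 0.134 and 0.245) and without Col25a1 as an anchor (0.124). Mef2c, another transcription factor, was at 313 ± 108 CPM against 128 ± 44.1 CPM.

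Genes with other roles were also higher there. Stmn1, which destabilises microtubules, was at 1069, 838, 921 and 859 CPM in wall-anchor and 437, 456, 195 and 377 CPM in floor-anchor cells (log2 difference -1.24 ± 0.17, SE; edgeR adjusted p = 6.31e-07). Pgrmc1, a haem-binding membrane protein, was at 588 ± 155 CPM against 258 ± 42.5 CPM. Msmo1, an enzyme of cholesterol synthesis, was at 177 ± 42.6 CPM against 60.3 ± 19.0 CPM, and Phgdh, which starts serine synthesis, at 247 ± 85.4 against 111 ± 26.3 CPM. Pkib, an inhibitor of protein kinase A, Necab2, a calcium-binding protein, the actin nucleator Fmn2, the adhesion molecule Vcam1 and the proteoglycan Cspg5 had log2 differences of -1.80, -1.51, -1.32, -1.22 and -1.16.

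**Figure D3:**
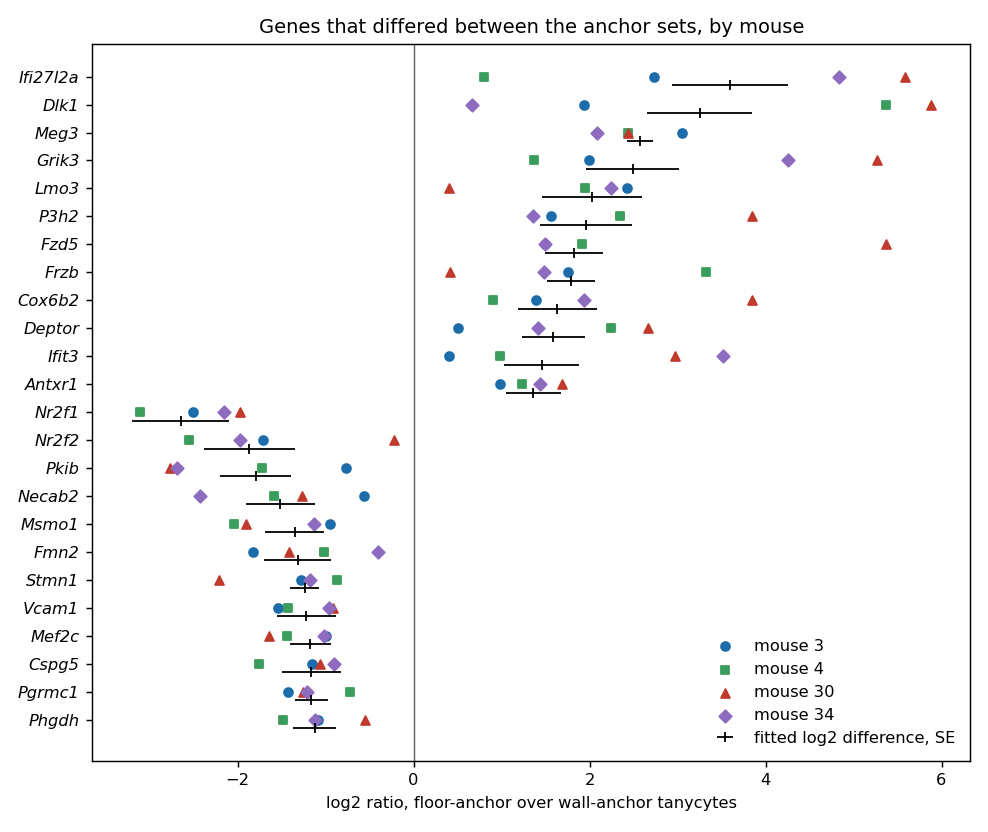
Log2 ratio (5 CPM added) of floor-anchor over wall-anchor tanycytes in each mouse for 12 named genes per direction; symbols are mice, and the black tick with its bar is the edgeR log2 difference with its SE. The genes were chosen among those with 1 direction in every mouse, so the 4 mice lie on the same side of 0 by that rule. Fzd5 in mouse 30 (5.37), with no UMI in its wall-anchor cells and so set by the added 5 CPM, lies apart from the other mice. Ratios of Ifi27l2a and Grik3 in mice 30 and 34 and of Dlk1 in mice 4 and 30 are set by it as well. So are those of P3h2 and Cox6b2 in mouse 30 and of Ifit3 in mouse 34.

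Among these 24 genes, the calls of Meg3, Fzd5, Frzb, Stmn1 and Pgrmc1 held in every alternative that tested them. The calls held in 2 of 9 alternatives for Lmo3, 3 of 13 for Cspg5, 4 of 13 for Ifit3, 6 of 14 for Vcam1, 6 of 13 for Necab2, 7 of 12 for Nr2f2, 6 of 10 for P3h2, 7 of 11 for Fmn2 and 8 of 12 for Cox6b2. For the other 10 the share was larger, from 9 of 13 for Msmo1 to 15 of 16 for Mef2c. Leaving out 1 mouse lost further calls beside those given above for Ifit3 and Nr2f2. The calls of Lmo3, Cox6b2, Vcam1 and Cspg5 were lost without mouse 3 (edgeR adjusted p = 0.175 to 0.361). Those of Lmo3, P3h2, Deptor, Necab2, Msmo1, Vcam1 and Cspg5 were lost without mouse 4 (0.0967 to 0.151), and those of P3h2, Cox6b2, Antxr1, Pkib, Necab2, Vcam1 and Cspg5 without mouse 34 (0.0543 to 0.398). Without mouse 30, the call of Cspg5 was lost as well (0.0565). Without Col25a1 as an anchor, 13 of the 21 calls tested were lost. Among these were Grik3, Deptor and Antxr1 (edgeR adjusted p = 0.0548, 0.199 and 0.156).

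Of the 49 genes that set tanycytes apart, 36 were tested between the sets. By edgeR, 13 were called higher in floor-anchor cells and 0 in wall-anchor cells (1.47% of all tested genes in each direction). The floor anchors Col25a1 and Fgf10 are among the 49 and neither wall anchor is. The rule thus picked floor-anchor cells partly by genes of this kind, so the split cannot be read apart from it. Crym was at 704 CPM in floor-anchor and 466 CPM in wall-anchor cells (log2 difference 0.74 ± 0.17, SE), and Col23a1 at 844 and 557 CPM (0.67 ± 0.15, SE). Both calls were lost without mouse 3 (edgeR adjusted p = 0.296 and 0.0699). Rax and Vim were not called, with log2 differences of 0.14 ± 0.50 and 0.14 ± 0.18 (SE). Gpr50 was not called either, at -0.09 ± 0.16 (SE).

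By list, of 9 regional genes of tanycytes other than the anchors, 2 were higher in floor-anchor cells (Crym and Frzb) and 2 in wall-anchor cells (Necab2 and Tgfb2), with a median log2 difference of -0.09. Of the others, 2 of 9 radial glia genes, Slc1a2 and Tubb2b, were higher in wall-anchor cells. Of 11 secreted factor and matrix genes, Col23a1, Frzb and Ptn were higher in floor-anchor cells and Cpe, Igfbp5, Sparcl1 and Tgfb2 in wall-anchor cells. Of 5 junction genes, Cdh2 and Cldn10 were higher in floor-anchor cells, and of 7 hormone receptor and lipid genes, Apoe was higher there and Fabp5 and Scd2 in wall-anchor cells. Crym was the call among 4 thyroid hormone genes, Hes1 among 3 progenitor genes and Tsc22d3 among 3 glucocorticoid response genes, each higher in floor-anchor cells. None of 9 identity factors, 7 FGF and ERK genes and 10 immediate early genes was called by edgeR. Neither was any of 4 genes of glucose, lactate and ATP handling or 3 of retinoid handling. Of all 2516 tested genes, 1.47% were called in each direction. Single calls and none in lists this short lie near that share and describe no trait of a list.

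Depth differed between the sets, while sums of other markers did so less evenly. The median UMI count was 1330 in floor-anchor and 1155 in wall-anchor cells. Astrocyte markers summed to 194 to 282 CPM in floor-anchor cells of the 4 mice and 239 to 389 CPM in wall-anchor cells. Ependymal markers summed to 335 to 591 and 547 to 778 CPM, and oligodendrocyte markers to 553 to 818 and 633 to 1151 CPM. Ependymal sums were higher in wall-anchor cells of every mouse. Astrocyte sums were not in mouse 30, and oligodendrocyte sums were not in mouse 4. None of the tested members of these lists was called by edgeR. With cells thinned to 800 UMIs, 42 genes were called, 37 of them among the 74. The part of other cells' RNA was not tested.

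The last question was how alike tanycytes were between mice. Among 1333 genes with at least 100 CPM, the log2 range between the highest and lowest mouse had a median of 0.32, and 41 genes reached 1. Genes with the largest ranges included Cxcl10, Nfkbia, Ptgds, Dusp1, Gm10076, Ifit3, Vps8, Junb, Zfp36, Hes1 and Btg2. The minimum is a mean over all 4 mice. Cxcl10, Nfkbia, Ifit3 and Dusp1 reached it only through the mouse in which they were highest. Gm10076 may share reads with near-identical copies and is uncertain. Of all 6276 genes with at least 20 CPM, 26.9%, 28.7%, 26.4% and 18.0% were highest in mouse 3, 4, 30 and 34, and 0.0159%, 0.112%, 0.542% and 0.0159% were at least 2-fold above the next mouse there.

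Interferon response genes stood apart in mouse 30. Interferons are antiviral cytokines that act through factors such as Stat2 and Irf9 on a shared set of targets. All 20 members had a UMI in tanycytes, and all 20 were highest in mouse 30 (27.6% of all genes with a UMI were). Of the 20, 13 were at least 2-fold above the next mouse (0.681% of all genes with a UMI). Of the 11 with at least 20 CPM in the mean of the other 3 mice, a filter that mouse 30 does not enter, 11 were highest in mouse 30 (24.4% of all genes) and 6 at least 2-fold above the next mouse (0.241%). The median log2 ratio of the 20 members to the other mice was 1.49 in mouse 30, -0.92 in mouse 3, -0.92 in mouse 4 and -0.37 in mouse 34. With 1 mouse apart in 1 group, no test was made.

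Among the signal carriers, Stat2 reached 11.3, 11.3, 47.4 and 17.4 CPM in mice 3, 4, 30 and 34. It was below 20 CPM in mice 3, 4 and 34 and passed that minimum only through mouse 30. Irf9 reached 20.2, 32.9, 84.3 and 29.1 CPM. Among the targets, Isg15, an ubiquitin-like protein, was at 18.2, 26.1, 182 and 33.1 CPM, and Ifit1, which binds foreign RNA, at 40.3, 38.6, 229.6 and 54.3 CPM. B2m, the light chain of MHC class I, was at 245, 226, 573 and 259 CPM. In each of these, mouse 30 lay at least 2-fold above the next mouse. Bst2, which tethers virus particles, was at 133, 109, 219 and 148 CPM, a smaller gap.

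Several chemokine genes were high in the same mouse. All 12 members had a UMI in tanycytes, 10 were highest in mouse 30 (27.6% of all genes with a UMI were) and 6 at least 2-fold above the next mouse (0.681%). Only 2 had at least 20 CPM in the mean of the other 3 mice, and 1 of these was highest in mouse 30. Ccl2, which attracts monocytes, stood at 1.47, 6.81, 175 and 7.28 CPM. Nfkbia, an inhibitor of NF-kappaB and on no list here, was at 15.2, 18.1, 359 and 32.5 CPM.

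Cxcl10, a chemokine induced by interferon, had a UMI in 226 of 851 tanycytes of mouse 30, or 26.6%, and in 0.374%, 0.433% and 1.04% of those of mice 3, 4 and 34. Thinned to 800 UMIs, the share in mouse 30 was 22.7%. In the oligodendrocytes of mouse 30, whose own expression of the gene was not tested, 4.65% had a UMI, at a median of 894 UMIs per cell against 932 in tanycytes. Tanycytes were not the type with the largest share, which was 73.9% in ependymal cells, 65.9% of 44 vascular leptomeningeal cells and 37.9% in microglia of mouse 30. In mouse 30 it was found in 11 of 20 wall-anchor and 26 of 110 floor-anchor cells. Across mice it was called higher in wall-anchor cells (log2 difference -1.72), a call that rested on mouse 30, without which the gene could not be tested.

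The promoters of the interferon targets were searched for the core of the interferon-stimulated response element, GAAA, any 2 bases and GAAA again, on both strands of the 250 bases before the start site (RefSeq, GRCm38.p6). Of the 20 list members, 18 had a window, and 10 of these held it (55.6%): B2m, Bst2, Gbp2, Gbp3, Ifit1, Ifit3, Igtp, Isg15, Rsad2 and Stat2. Of all 32851 windows, 2.98% held it. The windows of the 3 members with the largest ratio in mouse 30 among those with at least 20 CPM in the mean of the 4 mice, and of Cxcl10, are shown 5′ to 3′ on the strand of the gene, with the core in capitals. They are chr4:156200819-156201068 (minus strand) for Isg15, chr19:34640639-34640888 (plus) for Ifit1, chr3:142620413-142620662 (plus) for Gbp2 and chr5:92348890-92349139 (minus) for Cxcl10.
Isg15: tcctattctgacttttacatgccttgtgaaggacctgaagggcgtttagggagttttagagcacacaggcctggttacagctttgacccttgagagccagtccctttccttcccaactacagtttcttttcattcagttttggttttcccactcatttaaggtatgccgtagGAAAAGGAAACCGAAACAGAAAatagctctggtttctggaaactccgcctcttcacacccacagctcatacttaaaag
Ifit1: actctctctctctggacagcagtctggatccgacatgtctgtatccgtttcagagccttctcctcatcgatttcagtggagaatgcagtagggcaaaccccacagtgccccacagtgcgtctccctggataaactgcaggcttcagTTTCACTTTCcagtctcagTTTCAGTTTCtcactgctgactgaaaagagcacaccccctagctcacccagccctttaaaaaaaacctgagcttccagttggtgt
Gbp2: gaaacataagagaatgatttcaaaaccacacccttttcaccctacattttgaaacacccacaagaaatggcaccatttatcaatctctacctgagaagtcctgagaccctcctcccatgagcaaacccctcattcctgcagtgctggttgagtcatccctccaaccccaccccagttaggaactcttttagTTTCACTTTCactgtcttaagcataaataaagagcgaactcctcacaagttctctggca
Cxcl10: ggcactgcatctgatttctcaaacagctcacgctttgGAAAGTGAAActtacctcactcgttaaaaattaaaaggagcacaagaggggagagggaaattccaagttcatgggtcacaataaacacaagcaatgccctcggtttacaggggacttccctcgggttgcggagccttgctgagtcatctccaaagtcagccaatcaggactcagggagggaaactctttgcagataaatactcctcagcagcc
The capitals of Isg15 join 3 overlapping matches, and Ifit1 holds 2 separate ones. The matches of Ifit1 and Gbp2 read on the opposite strand. A match describes the letters and shows no binding in these cells.

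**Figure D4:**
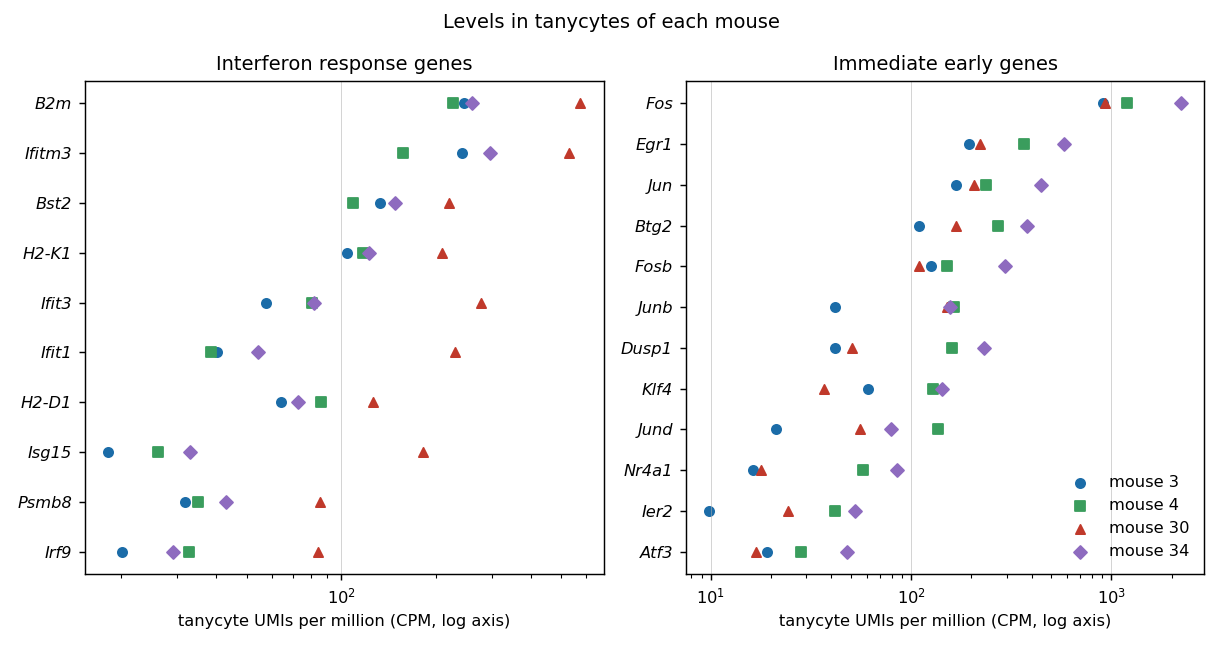
Level in tanycytes of each mouse (CPM, log axis; symbols are mice) of 10 of the 11 interferon response genes with at least 20 CPM in the mean of mice 3, 4 and 34, and of the 12 immediate early genes with at least 20 CPM in the mean of mice 3, 4 and 30; 1 interferon response gene is not reported here. Mouse 30 is highest in the 10 interferon response genes shown (24.4% of all genes), and mouse 34 in 10 of 12 immediate early genes (17.0% of all genes).

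Immediate early genes, which are switched on within minutes of many stimuli, were highest in mouse 34 in 10 of 12 members (18.0% of all genes were). All 12 passed 20 CPM without mouse 34 as well. None was 2-fold above the next mouse. The median log2 ratio to the other mice was 1.08 in mouse 34, 0.39 in mouse 4, -0.70 in mouse 30 and -1.13 in mouse 3. Fos stood at 911, 1198, 926 and 2226 CPM in mice 3, 4, 30 and 34, Egr1 at 194, 368, 220.2 and 579 CPM and Dusp1, a phosphatase that shuts off MAP kinases, at 41.8, 159.9, 50.6 and 231 CPM. Junb and Jund were the exceptions, with mouse 4 highest.

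Of 10 immediate early genes with a promoter window, 2 held the cyclic AMP response element TGACGTCA, Btg2 and Dusp1, against 1.55% of all windows. The element reads the same on both strands. None held a CArG box, which says only that its letters are not in these bases. Dusp1, with the largest ratio in mouse 34, is shown with the element in capitals (chr17:26508473-26508722, minus strand).
Dusp1: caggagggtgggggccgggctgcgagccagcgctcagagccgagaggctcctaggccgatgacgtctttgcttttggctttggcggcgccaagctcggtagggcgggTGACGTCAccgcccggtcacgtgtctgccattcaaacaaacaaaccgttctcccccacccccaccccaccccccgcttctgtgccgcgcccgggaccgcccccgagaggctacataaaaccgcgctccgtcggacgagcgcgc

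In other cell types of the same mice, mouse 30 also had the highest median for interferon response genes, except in endothelial cells. Over members with at least 20 CPM in the mean of the other 3 mice, its median log2 ratio was 2.03 in ependymal cells, where 10 of 10 were highest in mouse 30 (22.9% of all genes were). It was 1.22 in tanycytes over 11 members, and 1.06 in microglia, where 9 of 10 were highest in mouse 30 (21.0% of all genes). Smaller medians were found in committed oligodendrocyte precursors (0.67, 2 of 3 highest, 25.5% of all genes), oligodendrocyte precursor cells (0.34, 3 of 7, 25.4%), astrocytes (0.29, 4 of 5, 30.0%) and oligodendrocytes (0.26, 1 of 2, 30.6%). In endothelial cells the median was 0.15 with 7 of 19 highest in mouse 30 (26.9%), below the 0.17 of mouse 34. With the minimum taken over the mean of all 4 mice, which some members reach only through mouse 30, the medians were 2.49 in ependymal cells, 2.19 in microglia and 1.51 in tanycytes. Different genes have a level in each type, so these medians were not tested against each other. For immediate early genes mouse 34 had the highest median in each of 8 types, from 0.21 in endothelial cells to 1.08 in tanycytes. Mouse 3 was lowest in tanycytes (-1.13) and ependymal cells (-0.88), but stood at 0.26 in astrocytes. These medians are over genes with at least 20 CPM in the mean of the mice other than mouse 34. Of the 41 genes of large range in tanycytes, 35 had the same highest mouse in ependymal cells and 28 of 40 in astrocytes. Of all genes at that level, 47.9% and 45.8% did. Some of the 41 passed their minimum only through the mouse in which they were highest.

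**Figure D5:**
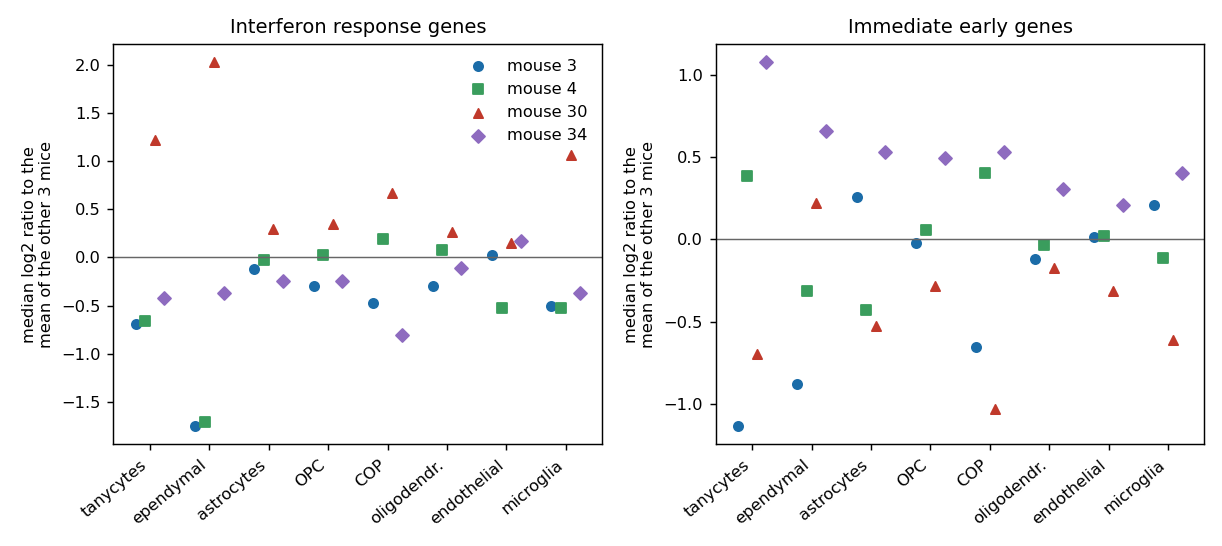
Median over list genes of the log2 ratio (5 CPM added) of each mouse to the mean of the other 3, for interferon response genes and immediate early genes in each type; symbols are mice. Genes have at least 20 CPM in the type in the mean of the mice other than mouse 30 (interferon list) or mouse 34 (immediate early list). For the interferon list mouse 30 is highest in 7 of 8 types, from 0.26 in oligodendrocytes to 2.03 in ependymal cells, but not in endothelial cells (0.15, against 0.17 in mouse 34), and mouse 34 is highest in each type for the immediate early list.

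Depth and other markers differed between mice too. Microglia markers summed to 48.2, 74.9, 74.8 and 40.3 CPM in tanycytes of mice 3, 4, 30 and 34. The 6 pituitary and choroid plexus markers, of which Tshb was at 0, summed to 308, 30.6, 53.7 and 44.8 CPM, so mouse 3 stood apart, and the 5 neuron markers to 1066, 1564, 1606 and 1159 CPM. The sums were 42.6 to 75.8 CPM for precursor markers, 125 to 144 CPM for endothelial, 43.7 to 59.0 CPM for mural and 7.84 to 22.1 CPM for leptomeningeal markers, the last highest in mouse 30. The median mitochondrial share was 11.6%, 12.8%, 13.1% and 12.1%, and mice 4 and 30 had the lower median UMI counts. Their part in the differences between mice was not tested.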

How the data were processed

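The authors deposited UMI counts per gene and cell, cell type labels, a mitochondrial percent and a doublet score, a fraction between 0 and 1. The submitters' processing notes name Cell Ranger 1.2, Seurat and the builds GRCm38, mm10 and GRCh38, with no role for each; how labels were made and doublets treated is not given in the sources used here. Cells of 12 further libraries were not used.

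Within each mouse, the counts of all cells of a type were added up and scaled to CPM. The anchor sets were compared with edgeR 4.0.16 in R 4.3.3 (two-sided quasi-likelihood F test, TMM, filterByExpr, Benjamini-Hochberg over all tested genes), with mouse as a block because both sets came from the same mice. On simulated data for this comparison (5 runs, 200 genes changed), 62.3% of 2-fold and 95.1% of 4-fold changes were recovered. Of the calls made there, 2.56% were false. Whether these shares hold for the measured counts was not tested. Named genes were the label markers, the 15 genes furthest above the next type at 50 CPM or more, list members, the 12 called genes of largest fold per direction with 1 direction in every mouse and at least 50 CPM, and the 12 of largest range between mice; Tcf7l2, Ifi27 and Nkx2-4 were chosen after their values were seen. Alternatives were DESeq2 1.42.0, other scaling and filters, thinning, and leaving out an anchor, the tenth of cells with the highest doublet score, or a mouse. Members and lists were chosen with earlier results of these data known. Some named genes are not reported here.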

Additional observations from a re-analysis of the deposited data

Results flagged for a closer look

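Among 55 values screened in tanycytes, 8 had 1 mouse far from the other 3. Chance alone gives such a gap in about 1 of 20 groups, but 6 of the 8 (Cxcl10, Nfkbia, Ptgds, Gm10076, Ifit3 and Junb) had been named for their large range between mice, so the count cannot be read against that rate. Cxcl10 was at 855 CPM in mouse 30 and 3.40 to 12.9 CPM in the others, Nfkbia at 359 CPM against 15.2 to 32.5 CPM, and Ifit3 at 277 CPM against 57.5 to 81.8 CPM. Ptgds, a prostaglandin synthase and abundant secreted protein, was at 1312 CPM in mouse 30 and 215 to 378 CPM in the others. Mouse 30 also had 44 vascular leptomeningeal cells, against 6, 12 and 6 in mice 3, 4 and 34. The part of RNA from other cells in the level of Ptgds was not tested. Slit2 was lower in mouse 30, at 520.4 CPM against 639 to 642 CPM. The log2 ratio of floor-anchor to wall-anchor cells for Fzd5 was 5.37 in mouse 30 and 1.49 to 1.92 in the others; mouse 30 had no Fzd5 UMI in its wall-anchor cells, so this value is set by the 5 CPM added and is no measured ratio. Junb was lower in mouse 3, at 41.8 CPM against 152 to 163 CPM. Gm10076 was higher in mouse 4, at 961 CPM against 207 to 335 CPM.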

How the results depend on the processing

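None of the 74 genes called between the anchor sets reversed in the 16 alternatives, wherever it was tested. DESeq2, which gave no adjusted p for 1902 genes, called 19 (10 higher in floor-anchor and 9 in wall-anchor cells), all among the 74. Without the replicate block for mouse, 23 were called (13 and 10), all among the 74. Leaving out 1 mouse gave 45 to 70 calls (23 to 34 and 19 to 36), and thinned cells 42 (24 and 18). Without a filter on low counts, 53 were higher in floor-anchor and 13 in wall-anchor cells. Leaving out Cd59a as an anchor gave 44 (18 in wall-anchor cells), Col25a1 33 (18 and 15), and Fgf10 150 (96 in wall-anchor cells); the cause was not tested. Of the 49 genes highest in tanycytes, 26 were left at a minimum of 100 CPM, which tests fewer genes. With at least 20 CPM in the mean of the other 3 mice, a filter chosen after seeing the data, 1 chemokine gene was highest in mouse 30, and with any UMI 10, against 4 at 20 CPM in the mean of all mice. Under the same filters 11 and 20 interferon response genes were highest in mouse 30, against 15, and 10 immediate early genes in mouse 34. Tanycytes were on average 31.4% of the cells of a mouse other than astrocytes. The median log2 range between mice was 0.348 with 693 cells from each mouse and 0.251 to 0.284 without 1 mouse, a range over fewer samples. The 20 wall-anchor cells of mouse 30 limit what its ratios can show.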

Other observations

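Another group of genes was highest in tanycytes of mouse 4, 15 of the 41 with a log2 range of at least 1, where mouse 4 was highest in 25.6% of the 1333 genes. Fth1, the ferritin heavy chain, was at 2287, 5228, 2802 and 2132 CPM in mice 3, 4, 30 and 34, the ribosomal protein gene Rpl13 at 401, 1158, 451 and 387 CPM and Tpt1 at 436, 1099, 618 and 517 CPM. Vps8 was at 174, 664, 532 and 219 CPM, high in mouse 30 as well. Of the 15, 13 were also highest in mouse 4 in ependymal cells, 11 in astrocytes and 15 in endothelial cells. Of all genes at that level that were highest in tanycytes of mouse 4, 54.2%, 57.1% and 50.2% were so in these types. Fth1, Rpl13, Tpt1 and Vps8 were chosen after their values were seen, and genes with near-identical copies are uncertain.

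Glucocorticoid response genes were highest in mouse 30 in 5 of 6 members in tanycytes (26.4% of all genes were), with a median log2 ratio of 0.41 to the other mice. With at least 20 CPM in the mean of the other 3 mice, 4 of 5 were (24.4% of all genes), with a median of 0.32. For endothelial cells and committed precursors the minimum was taken over all 4 mice, so members may reach it through mouse 30. In endothelial cells 9 of 10 members were highest in mouse 30 (29.9% of all genes), with a median of 0.75. In committed oligodendrocyte precursors 1 of 5 was (27.9% of all genes), with 0.21, and 3 were highest in mouse 34.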
